A study of Mus musculus with 9 samples.

Results

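Neutrophils of the Ly6g-low gate from lungs with macrometastases were compared with neutrophils of the Ly6g-high gate from normal lung, in 6 of the 9 bulk RNA-seq libraries of the series. The members are those 6 libraries, chosen by their labels, with 3 from each group. The first group (MACRO Ly6Glow) came from female BALB/c mice whose mammary fat pad had been injected with 4T1-LM3 (cells of the 4T1 mouse breast carcinoma line selected in vivo for spread to the lung) and whose lungs had reached the stage of macrometastatic nodules. The second group (NL Ly6Ghigh) came from the lungs of female BALB/c mice for which the labels name no tumor cells. The remaining 3 libraries (MACRO Ly6Ghigh), sorted through the Ly6g-high gate from macrometastatic lung, shared the model and are set beside single results. Lungs were digested with collagenase, stained for CD45, CD11b and Ly6g, and sorted. Tissue and gate both differ between the 2 groups, so that these 6 libraries alone cannot tell apart the part of each in a difference. The contrast of MACRO Ly6Glow with MACRO Ly6Ghigh, given for single results, holds the tissue constant and differs in the gate. The labels and methods do not say whether a library came from 1 mouse or from pooled mice, and the p-values therefore measure the spread among these libraries, which may be technical.

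Neutrophils are short-lived granulocytes that leave the bone marrow under the control of CXCR2 and CXCR4 and carry preformed azurophil, specific and gelatinase granules. Ly6g is a surface protein of mouse neutrophils whose level rises with maturation, and it is the usual handle for sorting them. In tumor-bearing lung, neutrophils live largely on glycolysis, meet low oxygen, and are known for producing nitric oxide, arginase, prostaglandins and interleukin-1.

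Each gene had 2 deposited values per library, an estimated count and an FPKM (fragments scaled for transcript length and library total). Estimated counts summed to 15267177 to 16553629 per MACRO Ly6Glow library and to 16570344 to 17171045 per NL Ly6Ghigh library. A gene was called when the quasi-likelihood F test of edgeR gave a Benjamini-Hochberg adjusted p of at most 0.05 and the log2 fold change exceeded 0.58 in size. Levels are given as CPM, counts scaled to a common library size that was normalized by TMM (trimmed mean of M values), which compares libraries and not genes. Levels of different genes are set side by side only in FPKM. Replicates lay close together, with a biological coefficient of variation of 0.0346.

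Most of the transcriptome differed. Of 14108 tested genes 9809 were called (69.5%), 4049 of them higher in MACRO Ly6Glow (28.7%) and 5760 lower (40.8%). Counts of genes called against normal lung in the lists below are to be read beside these shares. For 12252 genes (86.8%) the 3 libraries of one group did not overlap those of the other. Large differences were mostly decreases, with 315 called genes more than 4-fold higher and 2825 more than 4-fold lower, and with 16 more than 16-fold higher and 260 more than 16-fold lower. The median log2 fold change of all tested genes was -0.16. In the figure of fold change by level, the genes lower by more than 16-fold include Plet1, Lpl, Nr1d1 and Krt79, and Saa3, Casp6, Nos2 and Egln3 lead the higher genes that reached at least 10 CPM in a group.

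**Figure D1:**
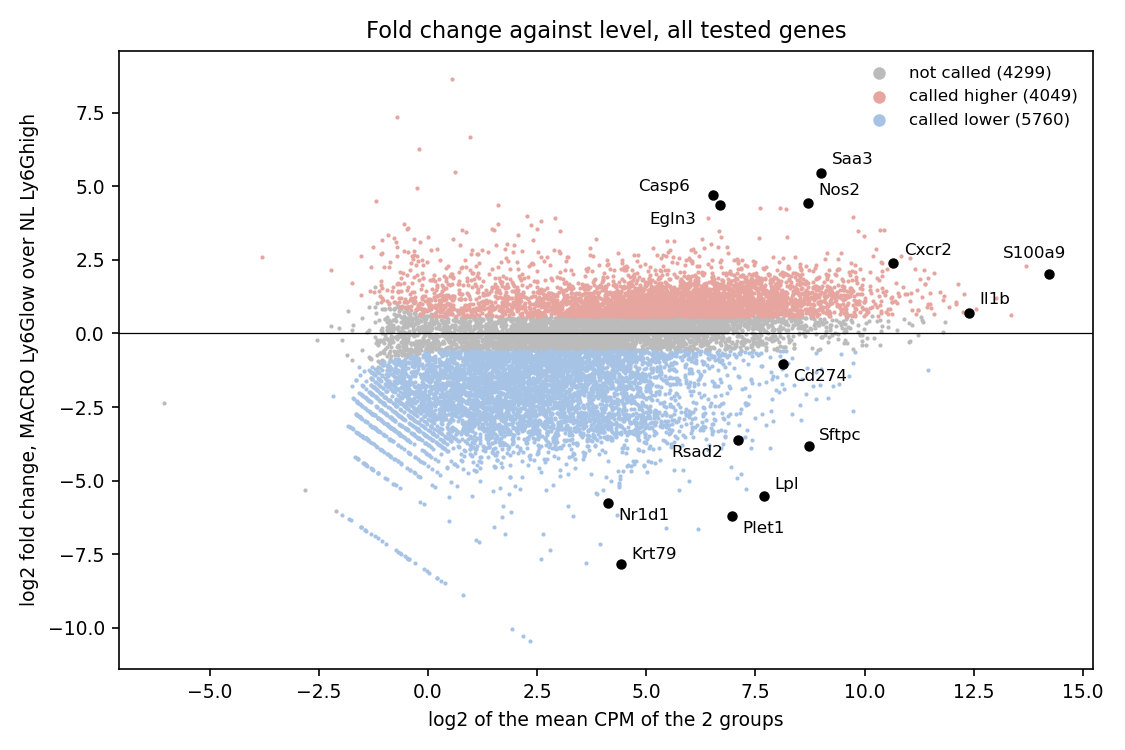
Log2 fold change of MACRO Ly6Glow over NL Ly6Ghigh (vertical axis) against the log2 of the mean CPM of the 2 groups (horizontal axis, log scale) for 14108 tested genes, coloured by call (4049 higher, 5760 lower, 4299 not called). Saa3 stands at 5.47, Krt79 at -7.82, and the cloud extends further below 0 than above it.

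The number of calls in each direction depended on how the libraries were scaled. TMM factors were 0.80 to 0.81 in MACRO Ly6Glow and 1.30 to 1.32 in NL Ly6Ghigh, which raises the fold changes by 0.70 on the log2 scale over scaling to total counts. Under total counts 1331 genes were called higher and 7993 lower (14.3% of calls higher, against 41.3% with TMM), and the median of all genes was -0.86. All 5760 genes called lower with TMM were also called lower under total counts, and 1331 of the 4049 called higher were also called higher. An increase therefore had to exceed 1.28 on the TMM scale to be called under both scalings. Where an increase named here was smaller, it was not called under total counts. Of the genes named below as not called, Arntl, B2m, Camp, Casp8, Clock, Mki67, Nfkb1, Ptgs2 and Siglecf were called lower under total counts. A second scale is set by neutrophil marker genes. The 12 genes that define neutrophils had a median of 1.71 on the log2 scale, or 3.27-fold, and 562 of the called increases (13.9%) lay above it. With that median set to 0, 177 genes were called higher and 12252 lower. That scale takes the markers as unchanged within neutrophils, which was not tested. Single markers differed, with Trem1 at 0.38 and Cxcr2 at 2.39.

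**Figure D2:**
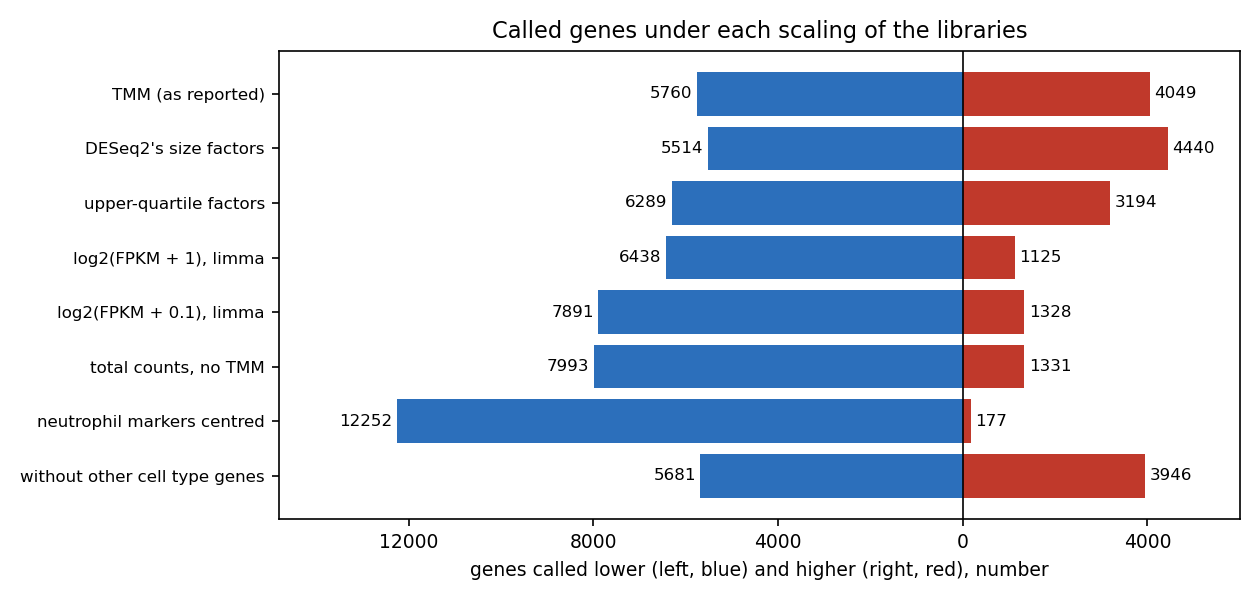
Number of genes called higher (right) and lower (left) in MACRO Ly6Glow over NL Ly6Ghigh under each scaling or feature set. Increases number 4049 with TMM, 1331 with total counts and 177 relative to the neutrophil markers, while decreases number at least 5514 in every bar.

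The gates and cell types were checked first. Ly6g itself went against the name of the gates at the RNA level. Its CPM was 384.4, 403.0 and 393.8 in MACRO Ly6Glow and 120.1, 120.1 and 117.7 in NL Ly6Ghigh, so the libraries of the low gate were the higher ones without overlap (log2 fold change 1.72, SE 0.035, edgeR adjusted p = 4.4e-21). Against MACRO Ly6Ghigh, at 373.5 ± 10.8 CPM (SD, n = 3), the difference was 0.08 (adjusted p = 0.058). The sort read the protein, which these files do not measure. Of the 12 neutrophil defining markers 9 were called higher and none lower, among them Cxcr2 (2.39), S100a8 (2.30), S100a9 (2.02), Csf3r (1.70) and Itgam, which encodes CD11b (1.59). Cxcr4, G0s2 and Trem1 were not called, at 0.53, 0.50 and 0.38. The summed CPM of the 12 markers was 83300 to 85190 in MACRO Ly6Glow, 73660 to 75480 in MACRO Ly6Ghigh and 24810 to 24980 in NL Ly6Ghigh.

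Most lists of other lung cells moved the opposite way, except that of eosinophils, basophils and mast cells, with 8 of 13 tested genes higher and 1 lower. Summed CPM of the alveolar macrophage list was 581.5 to 607.9 in MACRO Ly6Glow and 3701 to 3734 in NL Ly6Ghigh. For lung epithelium the sums were 248.2 to 258.3 and 1734 to 1880, for endothelium 282.2 to 284.0 and 1660 to 1745, and for fibroblasts 320.8 to 335.0 and 1484 to 1582. Every tested endothelial (15 of 15) and fibroblast gene (16 of 16) was called lower, as were 18 of 20 epithelial, 14 of 15 T and NK cell and 10 of 11 dendritic cell genes. Of monocyte and interstitial macrophage genes 11 of 18 were lower and 3 higher, of B and plasma cell genes 5 of 10 and 1, and of erythroid and platelet genes 6 of 8 and 1. Sftpc, surfactant protein C of alveolar type II cells, stood at 55.0, 58.1 and 54.5 CPM against 819.2, 731.4 and 814.9, a log2 fold change of -3.82 (SE 0.049, adjusted p = 2.8e-24). Kdr, the VEGF receptor of endothelium, gave -3.95, and Col1a2, a collagen chain of fibroblasts, -3.59. In MACRO Ly6Ghigh these 3 genes were close to MACRO Ly6Glow, at differences of 0.07, 0.07 and 0.08 that were not called. The keratin Krt5 and the alpha-globin gene Hba-a2 had no count in any MACRO Ly6Glow library, and their level was at least 10.6-fold and at least 38.8-fold lower than in NL Ly6Ghigh, computed against a floor of 3 counts per library. In bulk RNA, fewer cells of a type and less RNA per cell cannot be told apart, and the part of these other cells in the results below was not tested.

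**Figure D3:**
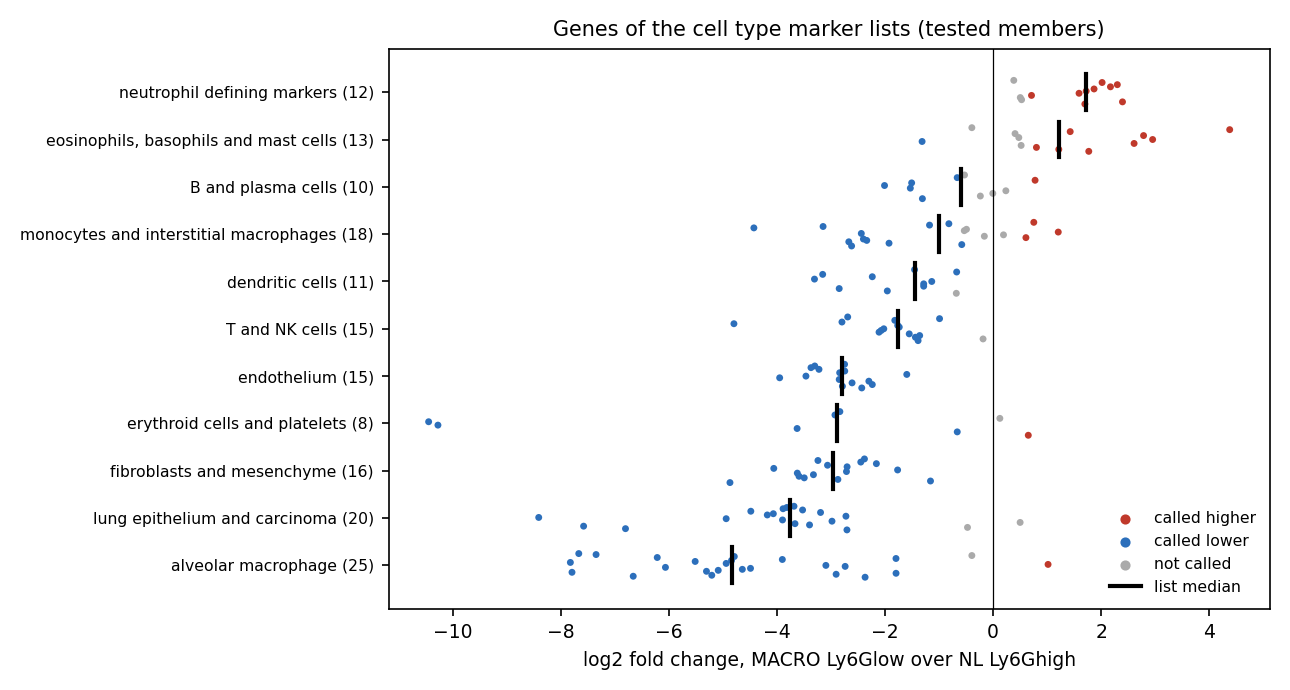
Log2 fold change of MACRO Ly6Glow over NL Ly6Ghigh (horizontal axis) for the tested genes of each cell type list (vertical axis, number tested in brackets). Points are genes, coloured by call, and bars are list medians, from 1.71 for neutrophil markers to -4.84 for alveolar macrophages.

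Alveolar macrophage genes formed the deepest decrease. Of 25 tested members 23 were called lower, 1 was called higher and 1 was not called, with a median of -4.84. Krt79, a keratin that marks these macrophages in mice, was at 43.1, 40.5 and 44.2 CPM in the NL Ly6Ghigh libraries and at 0.08, 0.38 and 0.08 in the MACRO Ly6Glow libraries (log2 fold change -7.82, SE 0.186, adjusted p = 4.6e-20). Plet1 fell from 246.3 ± 5.3 to 3.3 ± 0.5 CPM (SD, n = 3), and Lpl, which encodes lipoprotein lipase, from 408.7 ± 18.6 to 8.9 ± 0.5. Pparg, the nuclear receptor that alveolar macrophages need for their development, gave -4.79, the scavenger receptor gene Marco -4.84 and the mannose receptor gene Mrc1 -3.90. Cidec, a lipid droplet gene, had 0 to 0.16 CPM in MACRO Ly6Glow and was at least 105.5-fold lower. Trim29 was at least 51.5-fold and the zinc transporter gene Slc39a2 at least 59.4-fold lower. Siglecf, the lectin used to sort these cells, was not called (-0.39), and the potassium channel gene Kcnn3 was the member called higher (1.02).

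MACRO Ly6Ghigh stood between the other groups for much of this list, with a summed CPM of 2013 to 2059. Krt79 was at 7.3 ± 0.9 CPM there, Plet1 at 63.6 ± 1.3 and Lpl at 73.5 ± 3.8, and 20 members were called lower in MACRO Ly6Glow than in MACRO Ly6Ghigh. Over all tested genes 15.9% were called lower in that contrast. Epithelial and endothelial sums in MACRO Ly6Ghigh did not lie between the other groups, at 224.1 to 237.3 and 234.7 to 238.1, and the fibroblast sum did, at 495.4 to 502.3.

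Further genes were among the 15 largest decreases. Flvcr2, a choline transporter gene, was at 0.15 to 0.32 CPM against 29.1 to 32.4 (-7.15). Atp6v0d2, a subunit of the vacuolar proton pump and a member of the macrophage list, gave -6.66, and Gpnmb, a lysosomal glycoprotein gene of macrophages, -6.62. The sodium-proton exchanger gene Slc9a4 gave -6.21, the leukocyte receptor gene Lilra5 -6.18 and the serotonin transporter gene Slc6a4 -5.85. Bpifa1, a secreted airway protein gene, was at least 53.1-fold and the beta-globin gene Hbb-b1 at least 43.7-fold lower.

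The 4 genes that lead the increases at 10 CPM or more were separated from normal lung by more than 16-fold. Saa3, an acute phase serum amyloid, was at 1016, 1041 and 965.0 CPM in MACRO Ly6Glow and at 22.1, 24.0 and 22.3 in NL Ly6Ghigh (log2 fold change 5.47, SE 0.048, adjusted p = 1.8e-26). Casp6, an executioner caspase, was at 184.1, 183.8 and 168.4 against 6.6, 6.2 and 7.8 (4.69, SE 0.065). Nos2, the inducible nitric oxide synthase, was at 789.7, 809.4 and 774.0 against 37.1, 35.8 and 36.8 (4.44, SE 0.039). Egln3, an oxygen-sensing prolyl hydroxylase that is itself induced by hypoxia, was at 197.4, 198.9 and 191.3 against 8.6, 9.8 and 10.2 (4.36, SE 0.060). These 4 genes top a list picked for large, non-overlapping increases, and 86.8% of all tested genes did not overlap. Their separation, and their place above the neutrophil marker median, therefore follow from the choice. They lay above that median by 3.75, 2.98, 2.73 and 2.65 in the same order. The contrast with MACRO Ly6Ghigh reuses the MACRO Ly6Glow libraries by which the 4 genes were picked, so it is not independent of the choice. It called 9.29% of all tested genes higher, and 725 of the 4049 called higher over normal lung. The 4 genes were among them, and so differed within the metastatic lung too. In MACRO Ly6Ghigh the levels were 537.1 ± 20.2, 93.8 ± 1.0, 312.9 ± 7.6 and 93.8 ± 5.4 CPM, and MACRO Ly6Glow was higher by 0.91, 0.93, 1.34 and 1.06 (largest adjusted p of the 4, 1.9e-13, for Casp6). Per length, Saa3 was the most abundant of the 4 in MACRO Ly6Glow, at 1395 ± 51 FPKM, followed by Nos2 at 157.7, Casp6 at 101.0 and Egln3 at 60.0.

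**Figure D4:**
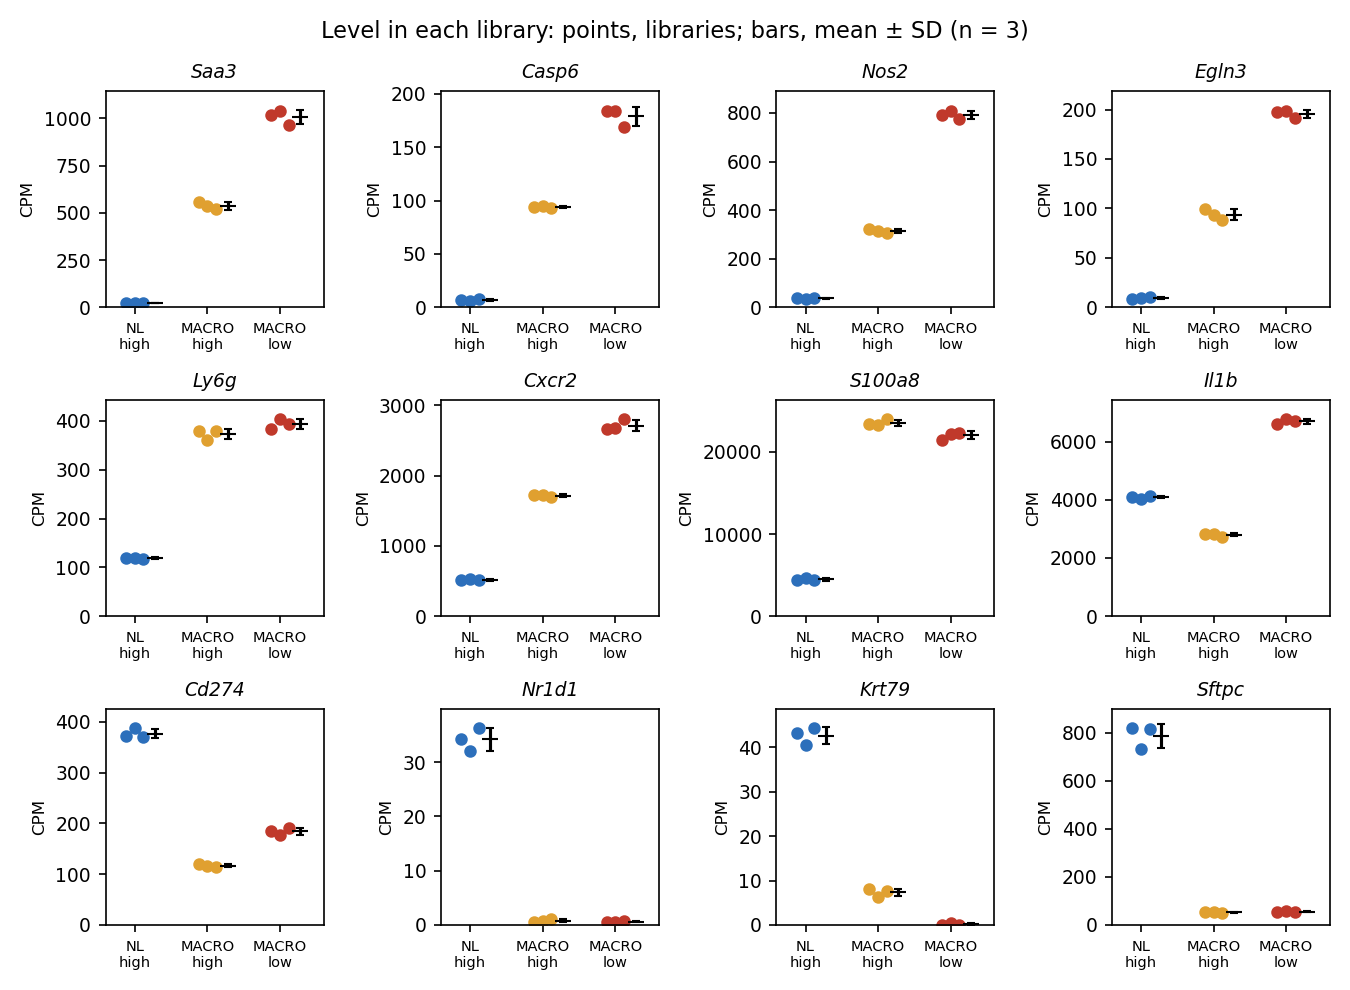
CPM (vertical axes, linear from 0) of 12 genes in each library of NL Ly6Ghigh, MACRO Ly6Ghigh and MACRO Ly6Glow, with the mean ± SD (n = 3) beside the points. Saa3, Casp6, Nos2 and Egln3 step up from NL Ly6Ghigh to MACRO Ly6Ghigh to MACRO Ly6Glow, whereas Cd274, Nr1d1, Krt79 and Sftpc are highest in NL Ly6Ghigh.

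Promoter sequences were looked up for the leading genes, because Egln3 is a textbook target of hypoxia-inducible factor (HIF) and Saa3 of C/EBP factors. The table of RefSeq promoters used here was matched for Saa3, Casp6 and Egln3. Each sequence below covers 250 bases before to 50 bases after the RefSeq start in GRCm38.p6, the assembly that mm10 names, and reads 5′ to 3′ on the strand of the gene. Capitals mark the searched motif, which is the hypoxia response element core ACGTG in Casp6 (chr3:129901165-129901464, plus strand), Egln3 (chr12:54203825-54204124, minus strand) and Bnip3 (chr7:138909457-138909756, minus strand), and the C/EBP motif TTGCNNAA on the opposite strand in Saa3 (chr7:46715627-46715926, minus strand). Bnip3, a mitophagy gene and HIF target, is shown because the motif occurs there on both strands at once and so forms the E-box CACGTG, which clock factors also bind.
Saa3: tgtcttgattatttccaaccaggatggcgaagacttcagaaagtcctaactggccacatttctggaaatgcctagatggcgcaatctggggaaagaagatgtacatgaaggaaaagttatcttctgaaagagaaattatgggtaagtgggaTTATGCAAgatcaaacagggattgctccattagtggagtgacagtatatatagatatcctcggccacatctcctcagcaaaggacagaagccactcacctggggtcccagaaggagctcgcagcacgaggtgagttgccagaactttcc
Casp6: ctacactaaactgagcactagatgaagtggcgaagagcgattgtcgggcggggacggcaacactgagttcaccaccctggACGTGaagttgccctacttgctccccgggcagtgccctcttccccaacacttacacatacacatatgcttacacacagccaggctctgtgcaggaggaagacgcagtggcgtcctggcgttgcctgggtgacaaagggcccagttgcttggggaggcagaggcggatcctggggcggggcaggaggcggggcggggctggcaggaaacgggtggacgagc
Egln3: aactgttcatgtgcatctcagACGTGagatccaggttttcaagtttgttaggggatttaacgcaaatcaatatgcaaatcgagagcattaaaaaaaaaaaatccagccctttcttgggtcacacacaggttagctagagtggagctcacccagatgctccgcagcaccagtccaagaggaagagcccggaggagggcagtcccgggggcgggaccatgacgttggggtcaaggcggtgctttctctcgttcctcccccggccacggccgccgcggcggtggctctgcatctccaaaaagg
Bnip3: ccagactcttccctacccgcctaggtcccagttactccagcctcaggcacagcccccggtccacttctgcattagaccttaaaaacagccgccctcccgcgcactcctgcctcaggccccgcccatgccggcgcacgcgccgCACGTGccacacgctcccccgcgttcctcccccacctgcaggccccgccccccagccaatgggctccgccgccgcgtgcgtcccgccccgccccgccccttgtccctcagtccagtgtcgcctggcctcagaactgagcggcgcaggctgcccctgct
The motif began 99 bases before the start in Saa3, 170 in Casp6, 229 in Egln3 and 108 in Bnip3. ACGTG stood on either strand in the promoter of 19 of 26 matched hypoxia list genes (73.1%) and of 28.2% of 11218 matched tested genes. Of matched genes called higher 30.1% had it, and of those called lower 26.3%. The hypoxia list was written by hand from HIF regulators and targets, so its share describes the list and not these libraries. The share was also high in the clock list, which moved the other way, with 10 of 16 matched genes (62.5%) and 6 of the 9 called lower (66.7%). CACGTG, which contains ACGTG, stood in 5 of 16 matched clock genes (31.2%), in 2 of the 9 called lower (22.2%) and in 11.2% of tested genes. TTGCNNAA, marked in Saa3, stood in 10.7% of matched tested genes, in 11.1% of those called higher and in 10.8% of those called lower. A match is a string of letters and not a measured site.

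HIF regulators and hypoxia targets were mostly higher. Of 30 tested members 22 were called higher and 6 lower, with a median of 1.12, and under total counts 11 were higher and 6 lower. Bnip3 was at 138.5, 138.8 and 145.9 CPM in MACRO Ly6Glow and at 17.5, 19.8 and 18.6 in NL Ly6Ghigh (2.92, SE 0.051, adjusted p = 3.9e-22). Pfkfb3, which makes the activator of phosphofructokinase, rose from 198.5 ± 1.9 to 1152 ± 13.6 CPM (2.54), and P4ha1, a collagen prolyl hydroxylase, gave 1.98. Ddit4, an inhibitor of mTORC1, gave 1.92, and the glucose transporter gene Slc2a1 gave 1.31. The regulators Vhl and Hif1a were higher by 1.75 and 1.23, the latter called with TMM but not under total counts. Against MACRO Ly6Ghigh 12 members were called higher and none lower, where 9.29% of all tested genes were called higher.

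The members of the hypoxia list that were lower included some of its best known targets. Vegfa, the angiogenic growth factor, fell from 168.5 ± 5.3 to 97.8 ± 0.4 CPM (-0.78, SE 0.038), and the hexokinase gene Hk2 gave -0.60 (-0.58 and not called without MACRO Ly6Glow replicate 1). Epas1, which encodes HIF-2 alpha and is abundant in endothelium, gave -2.92. The endothelial list was also lower, and a part of endothelial cells in the Epas1 value was not tested. Car9, the membrane carbonic anhydrase, had at most 3 counts in each MACRO Ly6Glow library and was at least 3.9-fold lower.

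Glycolysis was the metabolic pathway that moved most evenly. Of 20 tested genes 16 were called higher and 3 lower with a median of 1.51, and 12 were higher under total counts. Gapdh was at 4982, 5097 and 4764 CPM against 1257, 1086 and 1200 (2.07, SE 0.042). Tpi1, the triose phosphate isomerase, gave 2.61, Eno1 2.12, Pgk1 2.01, Ldha 1.93 and Pkm 1.67. The lower members were Hk2 and the muscle and neuronal isoenzymes Pfkm (-1.66) and Eno2 (-1.62). Only Tpi1, Pgam1, Eno1, Aldoa, Gapdh, Pgk1, Ldha and Gpi1 lay above the neutrophil marker median, and with that median set to 0 the list had 1 higher and 7 lower calls. In the pentose phosphate pathway G6pdx, which feeds NADPH to the oxidative burst, was higher by 2.17, and 5 of 10 members were called higher and 2 lower (5 and 3 under total counts). Respiratory chain genes had a median of 0.07, with 6 of 30 called higher and 4 lower, and cytosolic ribosomal protein genes -0.13, with 3 of 39 higher and 7 lower. Under total counts those counts became 0 higher and 16 lower, and 1 higher and 29 lower.

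**Figure D5:**
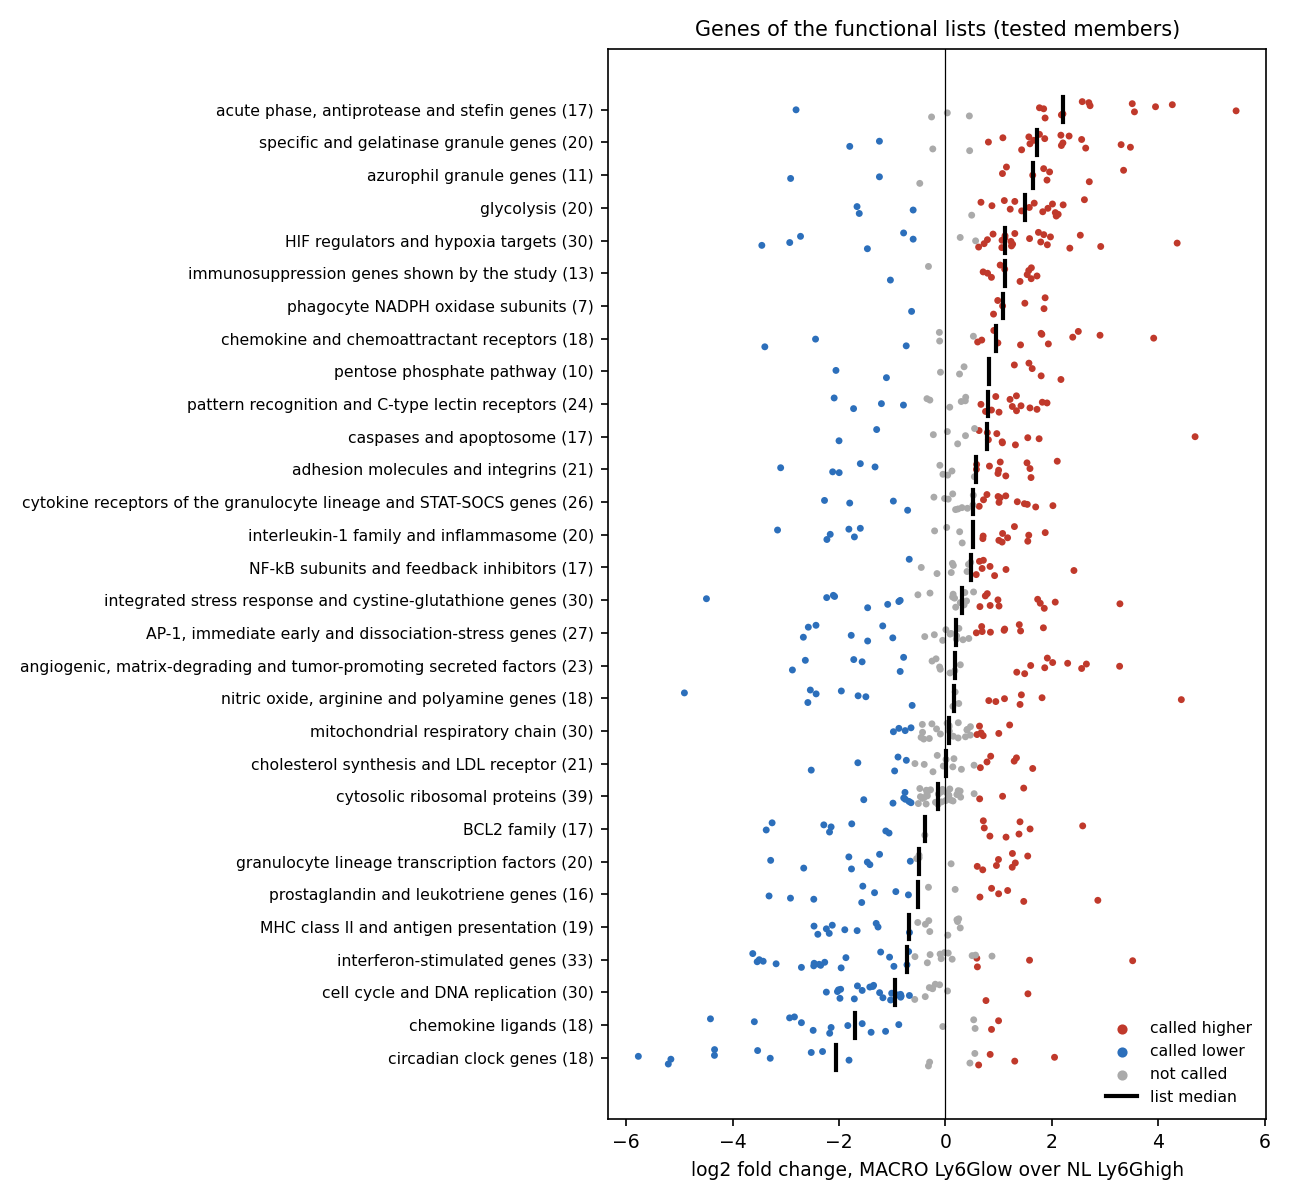
Log2 fold change of MACRO Ly6Glow over NL Ly6Ghigh (horizontal axis, TMM scale) for the tested genes of each functional list (vertical axis, number tested in brackets). Points are genes coloured by call and bars are list medians, which run from 2.21 for acute phase, antiprotease and stefin genes to -2.06 for clock genes.

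Acute phase, antiprotease and stefin genes had the highest median of the functional lists, 2.21, with 13 of 17 called higher and 1 lower, and 13 and 3 under total counts. Stfa2 and Stfa3, cysteine protease inhibitors of the stefin A family, rose to 1600 ± 38.5 and 512.1 ± 21.1 CPM from 103.5 ± 6.2 and 26.6 ± 2.5 (3.95 and 4.27). Wfdc17, a whey acidic protein domain antiprotease, was at 2563, 2619 and 2462 CPM against 231.7, 213.7 and 224.1 (3.51, SE 0.037). Lcn2, the siderophore-binding lipocalin, gave 2.21 and Slpi, the secretory leukocyte protease inhibitor, 1.77. Serpina3g, a serpin, was the member called lower (-2.81). Stefin, Wfdc and Saa genes have near-identical neighbors in the mouse genome, and how the counting shared their reads is not given in the sources used here.

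Other genes among the largest increases have scattered roles. Ggt1, which degrades extracellular glutathione, was at 375.2, 375.1 and 364.2 CPM against 21.1, 17.7 and 19.7 (4.25). Lipg, the endothelial lipase, reached 555.7 ± 10.6 from 29.4 ± 2.1 (4.24), and the interferon-induced membrane protein gene Ifitm1 2405 ± 109 from 209.5 ± 14.3 (3.52). The homing receptor gene Gpr15 gave 3.92 at a low level, Ambp 3.84 and the NKG2D ligand gene Raet1d 3.50. Ggt1, Lipg, Stfa2, Stfa3 and Gpr15 were not called between MACRO Ly6Glow and MACRO Ly6Ghigh, at differences of 0.18, -0.11, 0.32, 0.11 and 0.25. Ifitm1 and Wfdc17 differed between the gates of the metastatic lung by 1.07 and 1.18.

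Beside Nos2 stand the other arginine and polyamine genes. Of 18 members 7 were called higher and 8 lower (38.9% and 44.4%, beside 28.7% and 40.8% of all genes), with a median of 0.16 that turned to -0.54 under total counts, where 4 were higher and 8 lower. Arg2, the mitochondrial arginase, was at 640.1, 668.6 and 640.8 CPM against 241.1, 247.6 and 248.0 (1.40, SE 0.032), while Arg1, the cytosolic arginase, was low in both groups at 16.8 ± 1.9 and 25.9 ± 0.9 CPM (-0.62, and -0.53 and not called without MACRO Ly6Glow replicate 1). Sat1, which acetylates polyamines, gave 1.43 and the ornithine decarboxylase antizyme gene Oaz1 1.11. The genes that import or make the substrates were lower, with -4.90 for the arginine transporter gene Slc7a2, -2.43 for Slc7a1, -2.58 for the argininosuccinate synthase gene Ass1, -1.49 for Odc1 and -2.54 for the spermidine synthase gene Srm. Slc7a2 was at 260.0 ± 8.2 CPM in NL Ly6Ghigh, 58.9 ± 2.0 in MACRO Ly6Ghigh and 8.7 ± 0.3 in MACRO Ly6Glow. Krt79, Plet1 and Lpl of the macrophage list had the same order, and a part of other cells in the Slc7a2 values was not tested.

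Beside Casp6, 9 other caspase and apoptosome genes were called higher and 2 lower, of 17 (median 0.79). Casp4 of the noncanonical inflammasome gave 1.55 and Apaf1, the apoptosome scaffold, 1.32, and these passed under both scalings. Casp8, the initiator of death receptor signaling, was not called (-0.23), and 4 members were higher and 4 lower under total counts. The BCL2 family had 8 higher and 8 lower of 17 members (47.1% each, beside 28.7% and 40.8% of all genes), and 4 and 9 under total counts. Mcl1, the survival factor on which neutrophils depend, rose from 1851 to 4897 CPM (1.40), Bcl2l1 gave 1.59 and the death agonist Bid 2.58. Lower members included Bcl2 (-1.06), Bmf (-1.76) and the A1 paralogs Bcl2a1a (-2.18) and Bcl2a1d (-3.37), which share near-identical sequence so that reads may be divided among them.

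Granule genes were mostly higher, with exceptions. Specific and gelatinase granule genes had 16 of 20 called higher and 2 lower (median 1.72, and 14 higher under total counts). Mmp8, the neutrophil collagenase, gave 2.56, Cd177 2.64, Ifitm6 3.30 and Ceacam10 3.48. Ngp and Ltf, made in marrow precursors, were higher by 1.08 and 0.81 over normal lung and lower by 1.54 and 1.91 than in MACRO Ly6Ghigh. Camp, the cathelicidin gene on which the study centers, was not called against normal lung, at 159.3 ± 6.4 and 187.7 ± 10.3 CPM (-0.24, and -0.94 and called lower under total counts), and stood at 934.0 ± 18.5 CPM in MACRO Ly6Ghigh, 2.55 higher on the log2 scale than in MACRO Ly6Glow. Padi4, the histone-citrullinating enzyme of NET formation, was higher than in normal lung by 1.37. Azurophil granule genes such as Prtn3 (3.35), Elane (1.91) and Mpo (1.64) were called higher at levels of at most 7.6 CPM in MACRO Ly6Glow. Of the 11 members 8 were higher and 2 lower, or 6 and 3 under total counts. Against MACRO Ly6Ghigh 1 member was called higher and 8 lower, beside 9.29% and 15.9% of all tested genes. Compared with normal lung, lysozyme Lyz2 fell from 3963 ± 83 to 1679 ± 35 CPM (-1.24) and Chil3 gave -1.80, both being genes that alveolar macrophages also express. Of the phagocyte NADPH oxidase 6 of 7 genes were called higher with TMM and 3 under total counts, such as Rac2 (1.88) and Ncf1 (1.85). Cybb, the catalytic subunit, was lower (-0.63), a call that was lost in 3 of 20 alternative settings.

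Among surface receptors the chemoattractant receptors of neutrophils were mostly higher. Of 18 tested 12 were called higher and 3 lower, and 8 and 5 under total counts. Cxcr1 was at 155.3, 165.2 and 160.5 CPM against 9.9, 9.8 and 12.2 (3.92, SE 0.063), and Cxcr2 at 2663, 2674 and 2798 against 508.7, 529.3 and 509.1. The leukotriene B4 receptor gene Ltb4r1 gave 2.50, the short-chain fatty acid receptor gene Ffar2 2.91 and the formyl peptide receptor gene Fpr1 1.81. Cx3cr1, a receptor of monocytes, gave -2.44. Of pattern recognition and C-type lectin receptors 14 of 24 were called higher and 4 lower, led by Tlr1 (1.91), Tlr13 (1.82) and Clec4e (1.72), and Tlr9 gave -2.09. Under total counts 7 were higher and 7 lower, and with the neutrophil markers set to 0 none was higher and 15 were lower. Adhesion genes had 11 higher and 5 lower of 21, with Selplg at 2.10, while Icam1 and Itgax were lower, with -3.10 for Itgax. The adhesion median of 0.58 turned to -0.12 under total counts, where 4 were higher and 8 lower. The interferon gamma receptor gene Ifngr1 gave 2.02 and the G-CSF receptor gene Csf3r 1.70 among 26 cytokine receptor, STAT and SOCS genes, of which 12 were higher and 4 lower (median 0.52). Under total counts 5 of them were higher and 7 lower (median -0.18).

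Of 13 immunosuppression genes 11 were called higher and 1 lower, against 6 and 2 under total counts and 0 and 7 with the neutrophil markers set to 0. The study displayed these genes from its own RNA-seq of these groups, so the count is not independent evidence of a direction. Clec4e gave 1.72, Pla2g7 1.62, Cd84 1.61, Csf1 1.54 and Il1b 0.71. Il1b was at 6610, 6760 and 6716 CPM against 4103, 4043 and 4128, an increase that was 0.01 and not called under total counts. Ptgs2, cyclooxygenase 2, was at 648.8, 636.2 and 687.0 against 800.0, 874.5 and 782.7 (-0.32, not called for size, and -1.02 and called lower under total counts). Cd274, which encodes PD-L1, was the member called lower, at 184.0, 177.4 and 190.9 CPM against 371.9, 387.1 and 371.0 (-1.03, SE 0.037, adjusted p = 5.4e-17). Within the metastatic lung Cd274, Ptgs2 and Il1b were all higher in MACRO Ly6Glow than in MACRO Ly6Ghigh, by 0.66, 1.28 and 1.26. Their order over the 3 groups was therefore not the stepwise one of Saa3.

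Chemokine ligands had 2 of 18 called higher and 13 lower (median -1.70, and 0 higher and 14 lower under total counts). Cxcl2 and Ccl3, which neutrophils make, were higher by 1.00 and 0.87 with TMM. The interferon-inducible Cxcl9 fell from 70.1 ± 2.5 to 3.3 ± 0.7 CPM (-4.41) and Cxcl10 from 66.7 ± 1.7 to 10.2 ± 0.2 (-2.71), and Cxcl16 gave -3.59. In the interleukin-1 family 10 of 20 members were called higher and 6 lower (median 0.51), a balance that turned to 4 higher and 8 lower under total counts (median -0.19), with Il1rap at 1.88, the decoy receptor gene Il1r2 at 1.08, Il1a at -1.71 and Il18 at -2.23. Of NF-kB genes 8 of 17 were higher and 1 lower (1 and 4 under total counts), but the subunits Rela, Relb, Nfkb1 and Nfkb2 were not called with TMM (Nfkb1 0.11, and -0.59 and called lower under total counts) and the inhibitor gene Nfkbia, at 2217, 2242 and 2252 CPM against 433.4, 411.5 and 411.6 (2.42), was the sole one called higher under total counts. Alox5ap, the activating protein of leukotriene synthesis, gave 2.87 and Alox5 1.47, while Ltc4s and Hpgds, enzymes of leukotriene C4 and prostaglandin D2 synthesis, gave -3.31 and -2.91. In that list 6 of 16 genes were higher and 8 lower, and 2 and 9 under total counts.

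Interferon-stimulated genes were more often lower than higher in MACRO Ly6Glow. Of 33 tested 18 were called lower and 4 higher (median -0.72), and 25 and 2 under total counts. Rsad2, the antiviral enzyme viperin, was at 20.5, 21.0 and 20.0 CPM against 240.5, 261.2 and 255.4 (-3.62, SE 0.055, adjusted p = 3.3e-23). Ifit2 gave -3.54, Ifit3 -3.42, the immunity-related GTPase gene Iigp1 -3.50 and Isg15 -1.05. Ifitm1 (3.52) and Ifitm3 (1.58) were the members called higher under both scalings. Against MACRO Ly6Ghigh, where 9.29% of all tested genes were called higher and 15.9% lower, the direction was the reverse for many. There 17 members were called higher and 1 lower, with Rsad2 (1.18) and Isg15 (1.52) among the higher ones. Antigen presentation genes had no member called higher and 10 of 19 lower. The class II genes H2-Ab1 and Cd74 gave -2.24 and -2.18, beside the dendritic cell and macrophage lists, and the class I light chain B2m was not called (0.05, which turned to -0.65 and a call under total counts).

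Clock genes had the lowest median of the functional lists, -2.06, with 10 of 18 called lower and 4 higher. Nr1d1, which encodes the clock repressor REV-ERB alpha, was at 34.3, 32.1 and 36.2 CPM in NL Ly6Ghigh and at 0.57, 0.60 and 0.69 in MACRO Ly6Glow (-5.77, SE 0.146, adjusted p = 1.4e-19). Dbp gave -5.16, Nr1d2 -4.34, Tef -4.34 and Per3 -2.52. These genes share a phase of the daily cycle, being driven by E-box factors of the clock. Nfil3, which opposes Dbp and Tef at their binding sites, was at 534.4, 531.2 and 511.5 CPM against 128.1, 120.4 and 131.7 (2.05, SE 0.037), and Cry1 gave 1.30. Clock and Arntl, the core activators, were not called at -0.30 and -0.32. In MACRO Ly6Ghigh Nr1d1, Dbp and Nr1d2 were also low, as in MACRO Ly6Glow, with differences of -0.35, 0.09 and -0.09 that were not called. The labels give no time of day of collection. Rora (-2.31) and Bhlhe41 (-5.21) of this list are also expressed by lymphocytes or alveolar macrophages.

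Genes of replication were mostly lower. Of 30 cell cycle genes 20 were called lower and 2 higher (median -0.95), with Mcm2, a replicative helicase subunit, at -2.24 and Top2a at -1.35, while Mki67 was not called (-0.24). Phgdh, the first enzyme of serine synthesis, fell from 45.4 ± 1.9 to 2.0 ± 0.6 CPM (-4.49). In the stress response and glutathione list 11 of 30 genes were called higher and 8 lower (median 0.32), and 5 and 10 under total counts (median -0.38), led by Gclm, a subunit of the enzyme that limits glutathione synthesis (3.28), Gsr, glutathione reductase (2.07), and Asns, asparagine synthetase (1.86). Trib3, Atf4 and the cystine transporter gene Slc7a11 were not called. Early response genes had 9 of 27 higher and 7 lower (33.3% and 25.9%, beside 28.7% and 40.8% of all genes) and 3 and 13 under total counts, with Klf2 at 1.84, Egr1 at -0.99 and Fos not called. Cholesterol synthesis genes had 6 of 21 higher and 5 lower, and 3 and 11 under total counts. Their 28.6% called higher was near the 28.7% of all genes, and 23.8% were called lower. Of 20 lineage transcription factors 8 were higher and 8 lower with TMM, and 2 and 12 under total counts. The 40% called lower was near the 40.8% of all genes. Cebpb gave 1.26 and Rfx2 1.55, whereas Irf8 and Cebpa gave -3.28 and -2.66. Secreted angiogenic and tumor-promoting factors had 10 of 23 higher and 6 lower (43.5% and 26.1%), and 10 and 11 under total counts. Prok2, an angiogenic peptide of neutrophils, rose from 55.9 to 541.3 CPM (3.28) and Thbs1, an inhibitor of angiogenesis, fell from 1476 ± 28 to 238.2 ± 1.3 (-2.63).

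Markers of eosinophils, basophils and mast cells were the other cell type list with more increases than decreases, 8 of 13 higher and 1 lower, and 4 and 2 under total counts, at low levels. The basophil protease gene Mcpt8 was at 6.8 ± 1.3 CPM against 1.0 ± 0.1, and Prss34 at 5.8 ± 0.4 against 0.27 ± 0.08. The summed CPM of the list was 63.6 to 66.0 in MACRO Ly6Glow and 69.6 to 72.3 in NL Ly6Ghigh, so the median of 1.22 and the sum differ in direction.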

How the data were processed

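Neutrophils sorted from lung of BALB/c mice were profiled by poly(A) RNA-seq (TRIzol extraction, dUTP libraries, BGI), with 3 libraries in each of 3 groups. The authors deposited estimated counts per gene, without normalization, and FPKM values normalized for transcript length and library total. The build was mm10 per the labels, and the aligner, the counter and its strand setting are not given in the sources used here. Of 22064 listed genes 3739 were blank and 18325 had values, and 37.9% of the estimated counts were whole, so all were rounded. Groups came from titles and treatment fields. The description fields of the NL libraries name only the Ly6Ghigh group.

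In R 4.3.3, edgeR 4.0.16 (TMM, filterByExpr by group, quasi-likelihood F test, Benjamini-Hochberg) was fitted to all 9 libraries together, leaving 14108 genes. The standard error is the log2 fold change divided by the square root of F. Folds against groups with at most 3 counts in every library are lower bounds. Named genes were Saa3, Casp6, Nos2, Egln3 and Ly6g, the 15 largest changes each way among non-overlapping called genes of at least 10 CPM, the 10 genes of highest FPKM in each group, and within 41 hand-written lists the 4 largest changes, the most abundant member and members named for their role. Genes under 10 CPM are named for their role. Some genes that the rule would name are not reported here. Members and lists were chosen with earlier results of these data known. List symbols matched exactly for 754 of 761, 1 by a synonym, and 6 were absent. An exact permutation test of 3 against 3 cannot go below 0.1 and was not used. Replicates of one group differed by more than sampling noise. Alternatives were DESeq2 1.42.0, its size factors, upper-quartile factors, other filters and thresholds, limma 3.58.1 on FPKM (log2, pseudocount 1 or 0.1), the 6 libraries alone, a block on the replicate number and the omission of each replicate. Total-count scaling, centring on neutrophil markers and the omission of other cell types' genes were chosen after seeing the data. The edgeR, DESeq2 and limma steps were tested on simulated data. All groups there shared a mean profile, apart from a small set of genes raised and lowered in equal numbers. That setting differs from these lopsided data, so the simulation cannot decide between the scalings. Promoters are those of RefSeq, GRCm38.p6.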

Additional observations from a re-analysis of the deposited data

How the results depend on the processing

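Calls in either direction numbered 7085 to 12429 over all settings, against 9809. Increases, 4049 as reported, numbered 2285 with a log2 threshold of 1, 1125 and 1328 by limma on log2 FPKM (pseudocount 1 and 0.1), 1331 under total counts and 177 with the neutrophil markers centred, where decreases rose from 5760 to 12252. The share of increases among calls was 41.3% as reported, 14.9% and 14.4% on FPKM, 14.3% under total counts and 1.42% with markers centred. The median log2 fold change of all genes was -0.16 with TMM, -0.07 with DESeq2's size factors, -0.35 with upper-quartile factors, -0.86 under total counts, and -0.49 and -0.81 on FPKM. Leaving out each replicate in turn gave 9805 to 9866 calls, 4022 to 4054 higher and 5774 to 5821 lower. Without the genes of other cell types 3946 were higher and 5681 lower.

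On FPKM with the larger and the smaller pseudocount and under total counts, the adhesion median turned from 0.58 to -0.11, -0.11 and -0.12, Actg1 to -0.086, -0.086 and -0.087, and B2m, not called with TMM, to -0.65 in all 3. Nfkb1, also not called with TMM, gave -0.59 with the smaller pseudocount and under total counts. The actin gene Actg1 was called higher with TMM, at 0.61. Leaving out a replicate ended the calls of Arg1 and Hk2 (MACRO Ly6Glow replicate 1) and Actg1 (NL Ly6Ghigh replicate 2, 0.58). Of 275 named genes 215 kept call and direction in every setting in which they were recomputed. Centring on neutrophil markers was not among those settings.

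Replicate numbers are shared by the groups. Between MACRO Ly6Glow and NL Ly6Ghigh they gave no sign of pairs, as the correlations of same-numbered libraries were -0.02, -0.05 and 0.01. Whether the numbers pair MACRO Ly6Glow with MACRO Ly6Ghigh was not examined, and that contrast was computed without pairing. With a replicate block 9775 genes were called, 4037 higher and 5738 lower. The p-values rest on 3 libraries per group, which may be pools of mice or not. Low counts limit the folds of called genes with at most 3 counts in every library of one group alone. These were 445 lower genes at the floor in MACRO Ly6Glow and 12 higher genes at the floor in NL Ly6Ghigh.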

Other observations

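The 10 genes of highest FPKM in each group overlapped in 8. S100a9 and S100a8, the calprotectin subunits, led both, at 51935 ± 560 and 51718 ± 1049 FPKM in MACRO Ly6Glow and 20853 ± 365 and 17084 ± 801 FPKM in NL Ly6Ghigh (SD, n = 3). The ferritin heavy chain gene Fth1 followed at 6917 and 6270 FPKM. Retnlg and Wfdc17 were among the 10 in MACRO Ly6Glow alone, at 6239 and 4886 FPKM. Lyz2 and Srgn were among the 10 in NL Ly6Ghigh alone, at 5146 and 2632 FPKM.

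Of the 4049 genes higher than in normal lung, 725 were also called higher in MACRO Ly6Glow than in MACRO Ly6Ghigh, 142 were called lower and 3182 were not called. Of the 5760 lower genes, 1682 were also lower, 150 higher and 3928 not called. The 2 contrasts share the MACRO Ly6Glow libraries.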
